A study of Ovis aries with 14 samples.

Results

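The piRNA pathway genes described here are 10 genes chosen by name: the PIWI proteins PIWIL1, PIWIL2 and PIWIL4, the Tudor proteins TDRD1, TDRD5, TDRD6, TDRD9 and TDRKH, the helicase MOV10L1, and MAEL. Of the 10, 9 were measured in fetal sheep ovaries, among 16513 genes. In adult ovaries 7 were measured in the first of 2 tables (15863 genes) and 8 in the second (16074 genes). TDRD1 was not measured in any table, PIWIL1 was measured only in fetuses, and MOV10L1 was measured in adults only in the second table. Every table lists only genes with at least 61 reads in total over its libraries. All members measured passed the filter on low values, a mean normalized count of at least 10.

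PIWI-interacting RNAs (piRNAs) are short RNAs of the germ line that guide PIWI proteins, a branch of the Argonaute family, to the transcripts of transposable elements. PIWI proteins cut those transcripts or silence the elements in the nucleus, which protects the genome that is passed on. Precursor transcripts are handed to the processing machinery by MOV10L1, cut and trimmed at the mitochondrial surface, and assembled in cytoplasmic granules (nuage) whose Tudor proteins bind methylated arginines on PIWI proteins. In the fetal ovary, germ cells multiply, enter meiosis and become oocytes enclosed in follicles. Most of what is known of these genes comes from the mouse testis.

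Total RNA of whole frozen ovaries of wild type Suffolk sheep was sequenced in 14 libraries. The mothers of the testosterone groups were injected with testosterone propionate in cottonseed oil from day 30 to day 90 of gestation, and the control groups are labelled as controls, with no vehicle stated. Fetal ovaries were taken at day 90, the last day of exposure (3 control, 3 testosterone), and adult ovaries at year 2 (4 control, 4 testosterone). For adults the series' design text counts 3 controls and 4 testosterone animals, while the sample labels list 4 of each. The comparison asks which ovarian genes differ after prenatal testosterone at each age. The labels number the samples without tying them to mothers or litters, so the spread that p-values rest on is that between samples, which may be technical. The first adult table holds controls 4, 5 and 6 and testosterone 4, 5 and 6, the second controls 4, 6 and 7 and testosterone 5, 6 and 7, and 4 libraries are in both. The 8 adult libraries were therefore also joined, each counted once, over the 15773 genes in both tables.

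Libraries held 22.6 to 33.4 M reads. The ovarian and germ cell markers GDF9, DDX4, KIT and SYCP3 were measured at both ages, while DAZL, POU5F1, ZP3 and FOXL2 have no row. Adult controls and testosterone animals were mixed in luteal content: the luteal hormone gene OXT had 3507, 4048 and 2334 RPM (reads of a gene scaled to the same total in every library) in control 6, testosterone 4 and testosterone 7 and at most 3.17 in the other 5. Adult control 4 stood apart in smooth muscle markers, whose 4 genes summed to 21790 RPM there and to 2058 to 8210 in the other 7. Control 6 was the lowest adult library for PIWIL4 and TDRD9 and the highest for MAEL, and testosterone 7 the lowest for MAEL and PIWIL2. OXT was used only as a covariate in an alternative fit of the testosterone change. The part of luteal content in the levels of these genes was not tested.

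Between the ages, the piRNA pathway genes were far higher in the fetal ovary. All 8 members measured at both ages had every fetal library above every adult one, MOV10L1 over the 6 adult libraries in which it was measured. The 7 members in all tables all did so, against 20.8% of the 15175 genes in all tables. A mean at least 10 times higher in fetal than in adult controls was found for 7 of the 8, MOV10L1 among them. Of the 15175 genes, which do not include MOV10L1, 2.02% had such a mean. Because the tables were normalized separately and age goes with table, levels across ages are given in RPM with no test. The median log2 ratio of fetal to adult controls over all genes was 0.23 in RPM and -0.12 with median-of-ratios scaling, both small beside the members' ratios. Other pathway and germ cell genes gave ratios of 142 (RNF17), 102 (GTSF1), 57.0 (PNLDC1), 36.2 (SYCP1), 16.6 (STRA8), 15.5 (GDF9) and 14.8 (TEX15). SYCP1 and STRA8 rested on 3 adult controls. Ratios were smaller for PIWIL3 (7.10), MYBL1 (4.05), SYCP3 (2.82, with overlapping ages), PRMT5 (2.43) and TDRD7 (2.08). In a whole organ, fewer germ cells and less RNA per germ cell cannot be told apart.

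TDRD5, a Tudor protein of nuage, had 114 ± 21.0 RPM in fetal controls (SD, n = 3) and 0.557 ± 0.339 in adult controls (n = 4), a ratio of 205. MAEL, a nuage protein named after the fly gene maelstrom, had 120 ± 20.5 and 0.930 ± 0.175, a ratio of 129. MOV10L1 had 56.3 ± 6.39 and, in 3 adult controls, 0.445 ± 0.152, a ratio of 126. These 3 genes rested on few reads in adults, with 4 to 22 reads per library for TDRD5, 2 to 36 for MAEL and 2 to 16 for MOV10L1.

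PIWIL2, the counterpart of mouse MILI, had 39.8 ± 7.92 RPM in fetal controls and 0.408 ± 0.446 in adult controls, a ratio of 97.4. Control 7 held most of the adult level of PIWIL2: without it the log2 ratio was 7.71 in place of 6.61. TDRD6, known in mice as a component of the chromatoid body of male germ cells, had 66.7 ± 9.15 and 0.802 ± 0.463, a ratio of 83.1. TDRKH, which sits on mitochondria and holds PIWI proteins for trimming of their piRNAs, had 155 ± 45.6 and 3.44 ± 1.52, a ratio of 44.9. DDX4, the germ cell helicase also called VASA, gave a ratio of 99.4 with all 4 adult controls (191 ± 63.7 and 1.92 ± 0.925). The mean ratios of TDRD5, MAEL and MOV10L1 were above it and those of the other 5 members below it, with PIWIL2 above it when control 7 was left out. The ratio of MOV10L1 rested on 3 of the 4 adult controls. Per DDX4 read in the same library, the mean of MOV10L1 was 0.310 in fetal controls and 0.327 in those adult controls.

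The smallest differences between ages were those of TDRD9 and PIWIL4. TDRD9, an RNA helicase with a Tudor domain, had 91.9 ± 21.6 RPM in fetal controls and 8.12 ± 3.97 in adult controls, a ratio of 11.3. PIWIL4, the counterpart of mouse MIWI2 and a nuclear PIWI protein in mouse fetal testis, had 3.94 ± 1.79 and 0.929 ± 0.792, a ratio of 4.24. Its lowest fetal library (2.79) was 1.62 times its highest adult one (1.73). For PIWIL1, the counterpart of mouse MIWI, fetal controls had 18.5 ± 5.51 RPM and no adult value was measured. With testosterone libraries in place of controls the same 8 genes had the same direction.

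**Figure D1:**
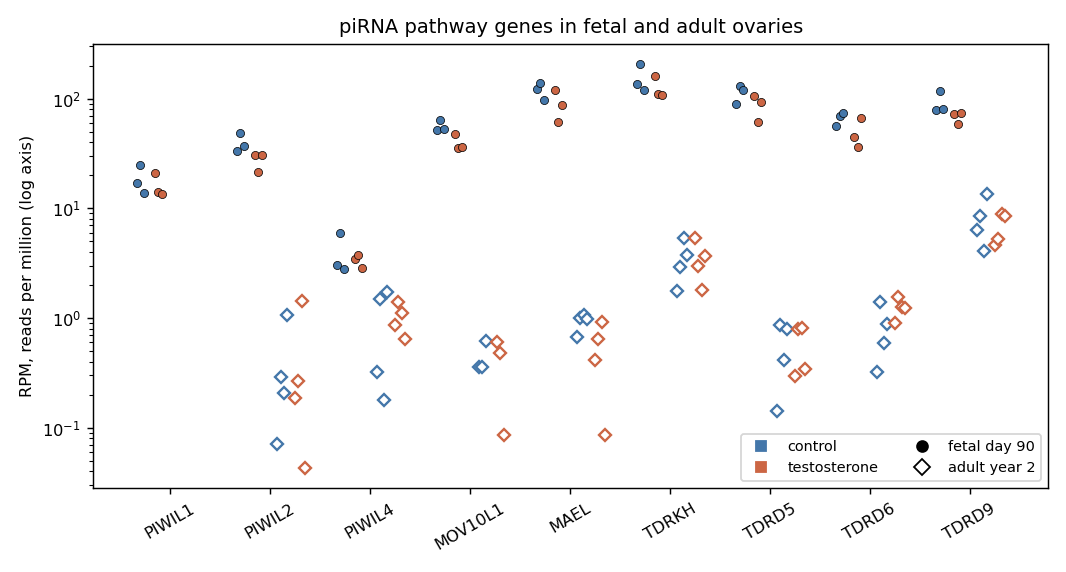
RPM on a log axis of the 9 measured piRNA pathway genes in each of the 14 libraries, filled circles for fetal day 90 and open diamonds for adult year 2, blue for control and orange for testosterone. Every gene with adult values has all fetal points above all adult points, with PIWIL4 and TDRD9 the least separated. MOV10L1 has 6 adult points and PIWIL1 none.

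In the fetal ovary all 9 measured piRNA pathway genes had a lower mean after testosterone, by 0.11 to 0.49 on the log2 scale, and 0 of 9 passed the threshold of an adjusted p under 0.05 (limma), where 0.0182% of 16513 genes passed. DESeq2 and edgeR on the recovered reads also called 0 of 9, where they called 1.58% and 0.0242% of all genes. Of all genes, 53.4% had a log2 change below 0. The members' median log2 change was -0.37, against -0.02 over all genes. For 3 of the 9, MOV10L1, PIWIL2 and TDRD9, every testosterone library lay below every control, where 7.46% of all genes did so, and 0 of 9 lay above, where 8.88% did. An unadjusted p under 0.05 was reached by 2 of the 9, MOV10L1 and PIWIL2, both lower, where 4.5% of all genes reached it in that direction.

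Among the PIWI proteins, PIWIL2 had normalized counts of 857, 1221 and 989 in controls 1, 2 and 3 and 796, 571 and 826 after testosterone. The groups did not overlap, with control 1 and testosterone 3 nearest to each other. The log2 change was -0.49 (SE 0.18, 95% interval -0.91 to -0.07, limma adjusted p = 0.453), or -0.32 without testosterone 2, and the authors' deposited table gives an adjusted p of 0.256. PIWIL1 had 437, 618 and 369 in controls and 555, 376 and 362 after testosterone. Here testosterone 1 lay above controls 1 and 3, and the groups overlapped (log2 change -0.13, SE 0.23, limma adjusted p = 0.872). PIWIL4 had 78.0, 151 and 74.0 in controls and 90.2, 100 and 76.5 after testosterone. Without control 2, its highest library, the log2 change of PIWIL4 was 0.22 in place of -0.11, and that of PIWIL1 was 0.07.

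Among the genes of piRNA processing, MOV10L1 had the smallest p of the 9. Its normalized counts were 1344, 1599 and 1401 in controls and 1250, 946 and 981 after testosterone. Means were 1448 ± 134 and 1059 ± 166 (n = 3 each), and the nearest libraries were control 1 and testosterone 1. The log2 change was -0.46 (SE 0.13, 95% interval -0.76 to -0.15), with a limma adjusted p of 0.338, a DESeq2 adjusted p of 0.114 and an adjusted p of 0.105 in the authors' deposited table. MAEL had 3128, 3491 and 2602 in controls and 3131, 1615 and 2362 after testosterone. Testosterone 1 was above controls 1 and 3 for MAEL, and testosterone 2 was far below the rest. The log2 change of MAEL was -0.42 (SE 0.22, limma adjusted p = 0.585), and it was -0.17 without testosterone 2. TDRKH had 3524, 5186 and 3191 in controls and 4230, 2923 and 2914 after testosterone, with groups that overlapped (log2 change -0.23, SE 0.21, limma adjusted p = 0.729). Without control 2 the log2 change of TDRKH was -0.02.

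Among the Tudor proteins of nuage, TDRD9 had 2017, 2935 and 2129 in controls and 1914, 1554 and 1994 after testosterone. The groups did not overlap, although control 1 and testosterone 3 differed by little (log2 change -0.36, SE 0.16, limma adjusted p = 0.524, and -0.19 without control 2). TDRD5 had 2324, 3284 and 3195 in controls and 2780, 1626 and 2520 after testosterone. Control 1 lay below testosterone 1 and 3, so the groups overlapped (log2 change -0.37, SE 0.21, limma adjusted p = 0.611, and -0.13 without testosterone 2). TDRD6 had 1448, 1756 and 1954 in controls and 1174, 965 and 1771 after testosterone. Testosterone 3 lay above controls 1 and 2, and the log2 change was -0.44 (SE 0.22, limma adjusted p = 0.560), or -0.24 without testosterone 2. The spans of TDRD5, TDRD6, TDRD9 and TDRKH overlap other genes in the RefSeq annotation of assembly ARS-UI_Ramb_v3.0, and the strand setting of the counting is not given in the sources used here.

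**Figure D2:**
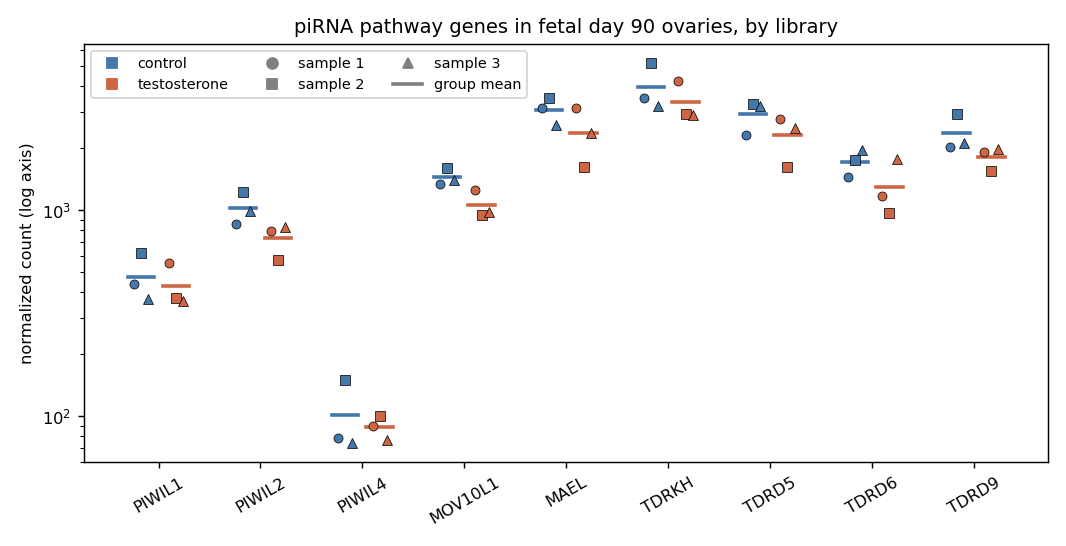
Normalized counts (log axis) of the 9 measured piRNA pathway genes in the 6 fetal libraries, with sample number by marker shape and group means as bars. Control 2 (blue square) is the highest library for 8 of the 9 genes and testosterone 2 (orange square) the lowest for 6.

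The fetal members did not all follow the same order of libraries. Control 2 was the highest library for 8 of 9 and testosterone 2 the lowest for 6 of 9. PIWIL1 and TDRKH followed each other most closely of the 36 pairs of members (Pearson r = 0.979 across the 6 fetal libraries) and both had the order control 2, testosterone 1, control 1 at the top. TDRD9 and PIWIL2 were the next closest pair (r = 0.966), with all controls at the top. TDRD6 was highest in control 3 and testosterone 3. Its r was -0.038 with PIWIL1 and -0.103 with PIWIL4, but 0.824 with PIWIL2, 0.787 with TDRD5 and 0.714 with TDRD9. PIWIL4 also had low values of r with TDRD5 (0.152), MAEL (0.235) and PIWIL2 (0.346). The median over the 36 pairs was 0.733. These correlations describe 6 libraries that differ in group and in their levels of meiosis and oocyte genes, and no test was made of them.

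Germ cell genes outside the members varied in the same libraries. Relative to the mean of the 6 libraries, the 25 measured meiosis genes averaged 0.50, 1.07 and -0.81 (log2) in controls 1, 2 and 3 and 0.45, -0.46 and -0.75 in testosterone 1, 2 and 3. The 10 measured oocyte genes averaged 0.86 in control 3, 0.52 in testosterone 3 and -0.14 to -0.48 in the other 4. Controls 1 and 2 and testosterone 1 were thus high in meiosis genes, control 3 and testosterone 3 high in oocyte genes, and testosterone 2 below the mean in both. The members averaged -0.01, 0.46 and 0.05 in controls and 0.04, -0.41 and -0.13 after testosterone, so that only control 2 and testosterone 2 were more than 0.2 from the mean.

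Single landmarks showed the same split. STRA8, which starts meiosis, had 128, 275 and 49.0 normalized counts in controls and 159, 84.1 and 68.9 after testosterone. SYCP1, of the synaptonemal complex, had 491, 903 and 151 in controls and 726, 442 and 194 after testosterone, and SYCP3 had 900, 1005 and 400 in controls and 977, 606 and 460 after testosterone. For all 3, control 3 was the lowest library. GDF9, an oocyte growth factor, had 2195, 2046 and 3613 in controls and 2256, 1966 and 3241 after testosterone, with control 3 highest. Across the 6 libraries, r with the mean of the germ cell identity and meiosis lists was 0.924 for PIWIL1 and 0.909 for TDRKH. It was 0.721 for MAEL, 0.707 for PIWIL4, 0.656 for MOV10L1 and 0.611 for TDRD9. The lowest were 0.483 for PIWIL2, 0.312 for TDRD5 and -0.054 for TDRD6. With that mean as a covariate, the fetal log2 change was -0.38 for MOV10L1, -0.43 for PIWIL2 and -0.53 for TDRD6. It was -0.33 for TDRD5, -0.28 for TDRD9 and -0.25 for MAEL, but -0.03 for TDRKH and 0.09 for PIWIL1 and for PIWIL4.

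**Figure D3:**
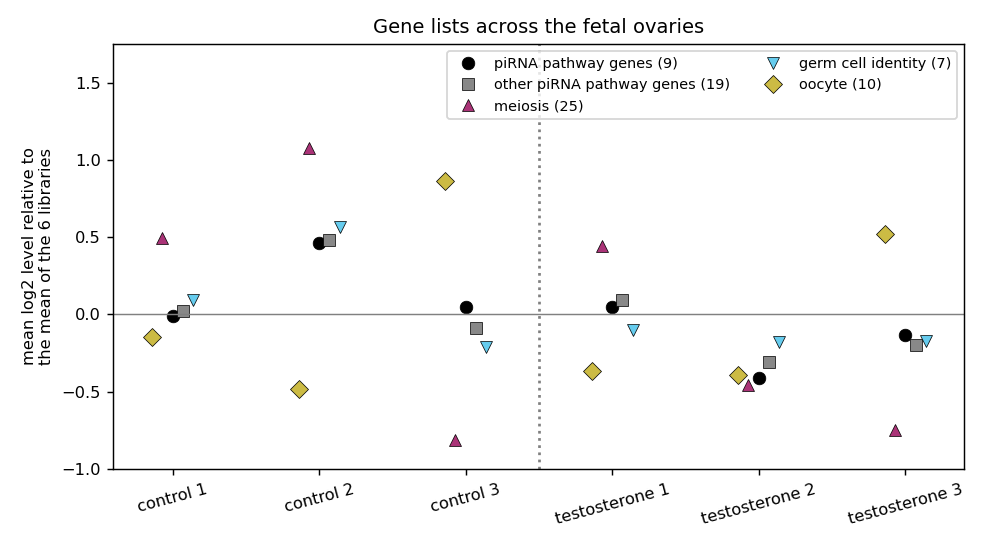
Mean log2 level of each gene list in the 6 fetal libraries relative to the mean of the 6, with the number of measured genes in brackets. The meiosis genes range from -0.81 to 1.07 and the oocyte genes from -0.48 to 0.86 with control 3 and testosterone 3 highest, while the piRNA pathway genes range from -0.41 to 0.46.

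Other genes of the pathway gave values of similar size. Of a list of 23 further piRNA pathway genes, 19 were measured in fetuses, 17 had a lower and 2 a higher mean after testosterone, 0 passed with limma, DESeq2 or edgeR, and the median log2 change was -0.25. An unadjusted p under 0.05 was reached by 4 of the 19, all lower. PNLDC1, the exonuclease that trims piRNA ends, averaged 1851 ± 523 (SD, n = 3) in controls against 1212 ± 216 with testosterone (log2 change -0.58, limma adjusted p = 0.470). TEX15, which acts with the nuclear PIWI protein in mouse testis, had 849 ± 316 and 509 ± 83.7 (-0.68, limma adjusted p = 0.482). GTSF1, a cofactor of PIWI cleavage, had 1174 ± 161 and 896 ± 175 (-0.40, limma adjusted p = 0.5003), and RNF17, another Tudor protein, 2312 ± 704 and 1613 ± 239 (-0.49, limma adjusted p = 0.504). TDRD15, also of the Tudor family, had 1355 ± 1014 and 656 ± 218 (-0.84, limma adjusted p = 0.597). PRMT5, the arginine methyltransferase whose marks Tudor domains bind, had 3877 ± 230 and 3482 ± 240 (-0.16, limma adjusted p = 0.606).

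Lists of other germ cell genes also had medians below that of all genes. The median log2 change was -0.48 for the 25 meiosis genes (24 lower), -0.34 for 7 germ cell identity genes (all 7 lower) and -0.12 for 10 oocyte genes (9 lower). For 11 measured genes of the small RNA machinery outside germ cells (AGO1 to AGO4, DICER1, DROSHA and others) it was -0.02, close to that of all genes, with 9 lower. None of these genes passed with limma, where 0.0182% of all genes passed, and 53.4% of all genes had a log2 change below 0. Summed levels of markers of other cells also differed between the fetal groups: the 4 measured granulosa markers summed to 40.95 to 56.4 RPM in controls and 55.0 to 71.4 after testosterone, and the 4 smooth muscle markers to 1135 to 1490 and 1583 to 2523. All 8 had a higher mean after testosterone, and the 3 measured theca markers a lower one (14.4 to 38.0 in controls, 6.70 to 10.5 after testosterone). The granulosa sums overlapped between the groups, while the mean log2 levels of these 4 genes did not. Relative to the mean of the fetal libraries, those levels were -0.43 to -0.24 in controls and 0.31 to 0.40 after testosterone. Limma called 0 of these 11 markers, where 0.0182% of all genes passed. DESeq2 called 3 smooth muscle and 2 theca markers, where it called 1.58% of all genes. The median log2 change was 0.07 for 4 endothelial, -0.17 for 4 macrophage and -0.19 for 4 luteal markers, with 0 called by DESeq2. Of 2 epithelium markers, 1 was higher and 1 lower, and DESeq2 called 1. The part of all these markers in the members' values was not tested.

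Set against DDX4 in the same library, the groups overlapped for most fetal members. DDX4 is also on the list of further piRNA pathway genes, so this ratio sets the members against another gene of the pathway. DDX4 itself had 4415, 6579 and 3679 normalized counts in controls and 4681, 3163 and 3156 after testosterone (log2 change -0.40, limma adjusted p = 0.606). Reads per DDX4 read overlapped between the groups for 7 of 9 members, and the mean was higher after testosterone for 5 and lower for 4. MOV10L1 had 0.305, 0.243 and 0.381 reads per DDX4 read in controls and 0.267, 0.299 and 0.311 after testosterone. PIWIL2 had 0.194, 0.186 and 0.269 in controls and 0.170, 0.181 and 0.262 after testosterone. The ratio to DDX4, chosen after the values were seen, thus gave overlapping groups for both genes.

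The 2 exceptions were PIWIL1 and TDRKH, both with all testosterone libraries above all controls, where 9.29% of 16512 genes were higher in this way and 0.315% lower. PIWIL1 had 0.0990, 0.0940 and 0.100 reads per DDX4 read in controls and 0.119, 0.119 and 0.115 after testosterone. TDRKH had 0.798, 0.788 and 0.867 in controls and 0.903, 0.924 and 0.923 after testosterone. The spread within each group was small for both, 0.00322 and 0.00231 (SD) for PIWIL1. For TDRD5 and TDRD6, control 3 and testosterone 3 stood out in place of the groups: TDRD5 had 0.869 and 0.799 in those libraries and 0.499 to 0.594 in the other 4, and TDRD6 had 0.531 and 0.561 and otherwise 0.251 to 0.328. PIWIL2 and TDRD9 were also highest per DDX4 read in control 3 and testosterone 3, the libraries high in oocyte genes.

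**Figure D4:**
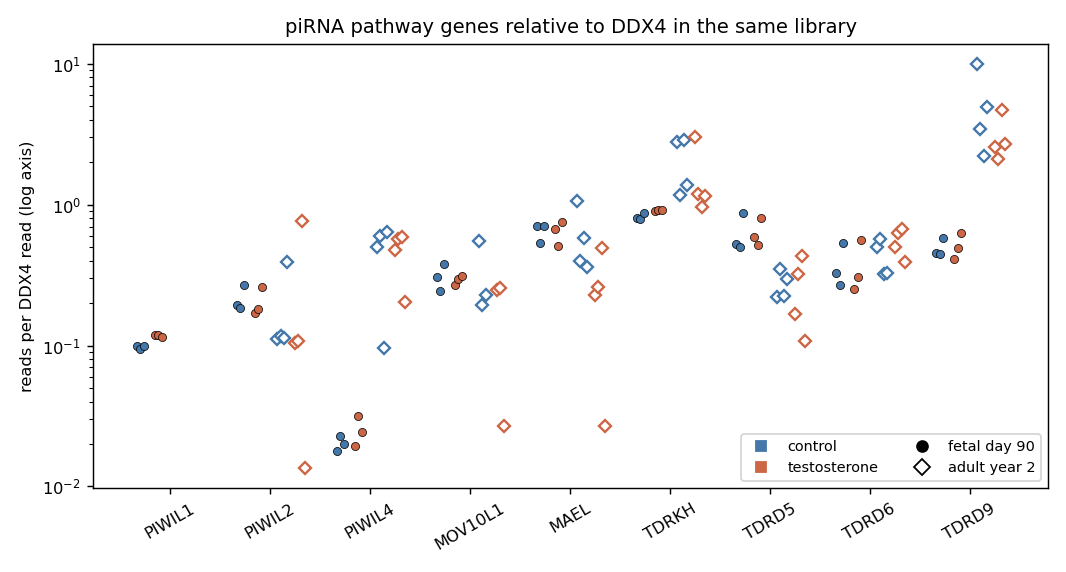
Reads of each piRNA pathway gene per read of DDX4 in the same library (log axis), filled circles for fetal and open diamonds for adult, blue for control and orange for testosterone. Fetal PIWIL1 and TDRKH form narrow groups with testosterone above control. TDRD9, TDRKH and PIWIL4 have all adult points above all fetal ones, as do 97.3% of the genes in all tables, and TDRD5 has all adult points below.

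Between ages, nearly all genes were higher relative to DDX4 in the adult ovary, where DDX4 itself was low: 97.3% of 15174 genes had every adult library above every fetal one, and 0.0132% (2 genes) every adult library below. Of the 7 members in all tables, 3 were above in this way and 1 below. TDRD9 had 0.446 to 0.632 reads per DDX4 read in the 6 fetal libraries and 2.11 to 9.94 in the 8 adult ones. TDRKH had 0.788 to 0.924 and 0.961 to 3.00, and PIWIL4 0.0177 to 0.0317 and 0.0968 to 0.639. TDRD5 was the member below, with 0.499 to 0.869 in fetuses and 0.108 to 0.431 in adults. For the other 3, MAEL, PIWIL2 and TDRD6, fetal and adult ratios overlapped. They also overlapped for MOV10L1, with 0.243 to 0.381 in fetuses and 0.0270 to 0.556 in the 6 libraries of the second adult table. Between the adult groups the ratio overlapped for all 7 members, where 0.413% of 15756 genes were lower and 0.0444% higher without overlap.

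In the adult ovary no piRNA pathway gene passed after prenatal testosterone, and their log2 changes had both signs. With the 8 libraries joined, 0 of 7 members passed with limma, where 0.0127% of 15757 genes passed, and 0 of 7 with DESeq2 (0.0444%) or edgeR (0.00635%). An unadjusted p under 0.05 was reached by 0 of 7, where 0.806% of all genes reached it. Of the 7, 3 had a log2 change above 0 and 4 below, where 50.9% of all genes were below, and the median was -0.05. Groups overlapped for all 7, where 0.374% of all genes were apart and lower and 0.33% apart and higher. Within the first table, 0 of 7 members passed (0.00631% of all genes) and in the second 0 of 8 (0.00623%), with 0 at an unadjusted p under 0.05 in either (0.637% and 0.486%). DESeq2 called 0 members in either table, where it called 0.0252% and 0.0311% of all genes, and edgeR called 0 genes of any kind.

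MAEL had the lowest log2 change in the joined adult libraries. Its normalized counts were 22.4, 24.7, 29.2 and 23.1 in controls 4, 5, 6 and 7 and 11.3, 15.8, 23.3 and 2.27 in testosterone 4, 5, 6 and 7. Controls lay close together, and testosterone 7 held 2 reads. The log2 change was -1.19 (SE 0.67, 95% interval -2.70 to 0.33, limma adjusted p = 0.99994), and -0.59 without testosterone 7. TDRD6 had 10.6, 34.96, 16.2 and 21.0 in controls and 24.5, 38.1, 31.7 and 32.9 after testosterone, the highest log2 change of the 7. Only control 5 lay among the testosterone libraries. The log2 change of TDRD6 was 0.70 (SE 0.48, 95% interval -0.38 to 1.78, limma adjusted p = 0.99994), and 0.44 without control 4. In the second table, which lacks control 5, the TDRD6 groups did not overlap (log2 change 1.10, SE 0.59, limma adjusted p = 0.99978), where 1.05% of all genes were higher and 1.56% lower in this way. It was the only 1 of 8 members with groups apart there. The first table had 0 of 7 apart, where 1.92% of all genes were lower and 1.65% higher in this way.

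The remaining adult members had wide spreads. PIWIL2 had 2.36, 7.197, 5.67 and 25.2 in controls and 5.11, 6.50, 36.4 and 1.13 after testosterone. The high values were 24 reads in control 7 and 39 in testosterone 6, and testosterone 7 held 1 read. The log2 change of PIWIL2 was -0.10 (SE 1.01) with limma and 0.29 with DESeq2, so its direction depended on the tool. PIWIL4 had 10.6, 37.0, 4.86 and 40.9 in controls and 23.5, 34.3, 28.0 and 17.01 after testosterone (log2 change 0.51, SE 0.71). Controls spanned the whole range of the testosterone libraries. TDRD5 had 4.72, 21.6, 11.3 and 18.9 in controls and 8.18, 19.5, 20.5 and 9.07 after testosterone (log2 change 0.09, SE 0.64).

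TDRD9 and TDRKH rested on 49 to 303 reads per adult library, more than the other members. TDRD9 had 211, 213, 112 and 318 in controls and 127, 127, 225 and 226 after testosterone (log2 change -0.24, SE 0.39). TDRKH had 59.0, 72.0, 146 and 88.2 in controls and 147, 72.4, 45.7 and 97.5 after testosterone (log2 change -0.05, SE 0.45). The 3 highest libraries for TDRKH were testosterone 4, control 6 and testosterone 7, the libraries high in OXT. Beyond the fit with OXT as a covariate, the part of luteal content in these values was not tested. MOV10L1, in the second table only, had 11.9, 9.84 and 14.7 in controls 4, 6 and 7 and 15.1, 12.2 and 2.28 in testosterone 5, 6 and 7 (log2 change -0.55, SE 0.89). Without testosterone 7, which held 2 reads, it was 0.17. Control 4, high in smooth muscle markers, was the lowest library for TDRD5 and TDRD6. It was also the lowest adult library for DDX4 (0.640 RPM), GDF9 (2.03 RPM) and the summed germ cell identity genes (12.1 RPM), though not for SYCP3. The summed meiosis genes were lowest there too (26.0 RPM). The oocyte genes, GDF9 among them, summed to 14.66 RPM in control 4, above 14.19 in testosterone 4 and 14.25 in testosterone 7. The germ cell identity sum was highest in the libraries high in OXT (224.9, 127.8 and 114.3 RPM in control 6, testosterone 4 and testosterone 7).

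Of the further piRNA pathway list, 15 of 23 genes were measured in both adult tables. In the joined libraries 9 had a higher and 6 a lower mean, where 50.9% of all genes had a log2 change below 0. With limma 0 passed, where 0.0127% of all genes did, and the median log2 change was 0.02. The first 3 genes given next were picked for the smallest p. TEX15 averaged 56.7 ± 32.6 in controls against 83.9 ± 42.1 with testosterone (SD, n = 4) (log2 change 0.71, SE 0.62). PIWIL3, a PIWI protein that mice lack, had 71.3 ± 44.5 and 96.0 ± 39.4 (0.50, SE 0.50). MYBL1, a transcription factor that drives piRNA genes in mouse testis, had 63.9 ± 24.0 and 47.3 ± 12.5 (-0.38, SE 0.42). The limma adjusted p was 0.99994 for all 3. DDX4 had 49.3 ± 19.6 and 60.2 ± 16.8 (0.36, SE 0.45).

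The effect of testosterone was then compared between the ages by the difference of the log2 changes, adult minus fetal. For 0 of 7 members did it pass, where 0.0066% of 15163 genes passed, and 0 of 7 reached an unadjusted p under 0.05 (2.43% of all genes). The difference was above 0 for 6 of 7, where 49.2% of all genes were above 0. TDRD6 had the largest difference, 1.14 (SE 0.52, 95% interval -8e-04 to 2.27, adjusted p = 0.99995, unadjusted p = 0.0501), from -0.44 in fetuses and 0.70 in adults. MAEL had -0.77 (SE 0.70), PIWIL4 0.62 (SE 0.77), TDRD5 0.46 (SE 0.67), PIWIL2 0.39 (SE 1.02), TDRKH 0.18 (SE 0.50) and TDRD9 0.12 (SE 0.42). Single adult libraries decided much of these values: without testosterone 7 the difference of MAEL was -0.17, and that of PIWIL4 was 0.080 without control 6 and 1.03 without control 7. The standard errors came mainly from the adult side, where they were 0.39 to 1.01, against 0.16 to 0.30 in fetuses for the same genes.

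**Figure D5:**
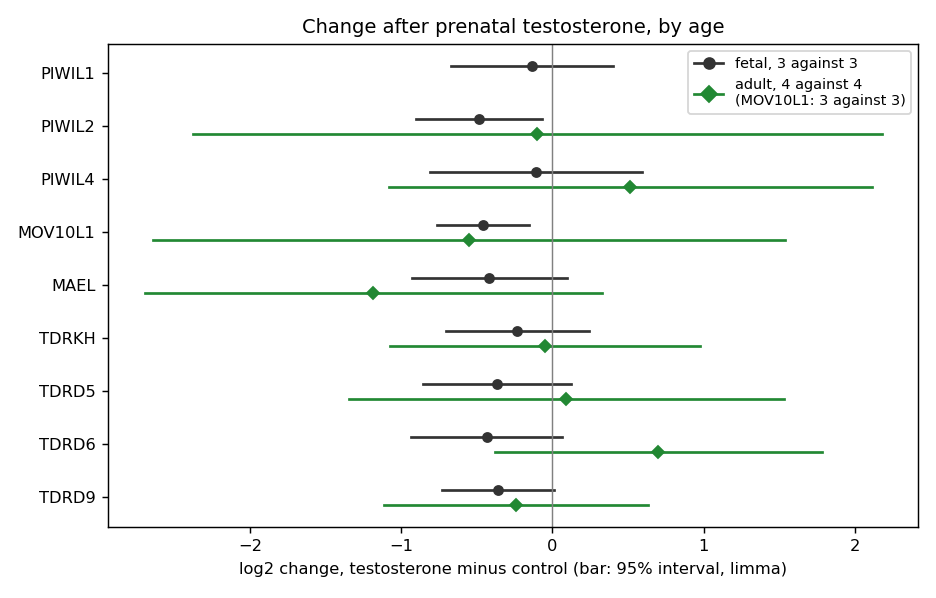
Log2 change after prenatal testosterone (testosterone minus control) of each piRNA pathway gene with its 95% interval from limma, black circles for fetal and green diamonds for adult ovaries. All 9 fetal values are below 0 and the intervals of PIWIL2 and MOV10L1 exclude 0 before adjustment. All 8 adult intervals include 0.

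Genes with the pattern most like the mean of the members were sought by Pearson correlation. Across the 6 fetal libraries they were SPINK5 (r = 0.984), SBNO1 (0.983), IGF2BP1 (0.981), FGF2 (0.980) and COG2 (0.979). As many as 219 of 16513 genes had r above 0.9 there, so these 5 lead a large group. Across the 8 adult libraries they were POLR3E (0.989), AJAP1 (0.987), ATP6V1C2 (0.986), ANGEL1 (0.981) and MYBPC1 (0.975), of 254 among 15757 genes above 0.9. None of these 10 genes belongs to the lists used here. Between members themselves the median r in adults was 0.182 over 21 pairs, lower than in fetuses, in libraries with far fewer reads of these genes.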

How the data were processed

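Ovary RNA of 14 libraries (500 ng of input and paired reads of 150 bases, per the labels' protocols) was analysed from 3 deposited tables. The submitters' processing notes name Trimmomatic 0.36 and STAR 2.5.2b. Genome build, annotation and counting program: not given in the sources used here. Each library has a signal, which the authors deposited as a normalized count (reads divided by a size factor; the series text names DESeq2). Per the file headers the authors also give a log2 change of their comparison with its p-value, raw and adjusted. In each library, dividing by the smallest step gave whole reads (100% of values, tolerance 0.01), which were used as recovered reads. Depth was 22.6 to 33.4 M reads. For control 6 the adult tables differ (26.4 M, then 33.4 M); the larger set was used when joining.

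Genes whose values averaged at least 10 were fitted with limma 3.58.1 in R 4.3.3, on log2(value + 1) with a trend of variance on level. Tests were two-sided, with Benjamini-Hochberg adjustment over all genes of the table and a threshold of 0.05. A change on this scale understates that of low genes. Recovered reads were also tested with DESeq2 1.42.0 and the quasi-likelihood test of edgeR 4.0.16. The limma, DESeq2 and edgeR fits without covariates or blocks, and the difference between ages, were run on simulated data. The simulation of the age difference used equal spread at both ages, unlike the real data. The other alternatives were not run on simulated data. Differences between ages used Satterthwaite degrees of freedom. The members, the lists and the tests were chosen with earlier results of these data known. The genes named from other lists are the 6 fetal and 3 adult further piRNA pathway genes of smallest p, a set of germ cell landmarks, and the 5 genes most like the members at each age. Alternatives were other filters (none, 50), pseudocounts of 0.5 and 5, TMM and quantile scaling, DESeq2, edgeR, the sample number as a block, covariates and leaving out each library. No sequence was printed, since the reference table holds names only.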

Additional observations from a re-analysis of the deposited data

Results flagged for a closer look

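Of 14 groups of 4 adult libraries (7 members, 2 groups each), 1 had a library far from the others. PIWIL2 in testosterone 6 had a normalized count of 36.4, while the other 3 testosterone libraries had 1.13 to 6.50, and the gap was 0.848 of the range of the group, above the critical value of 0.829 for 4 samples. Chance marks about 1 in 20 such groups if values are normally distributed, which low counts without a log2 transform need not be. Control 7 had 25.2, so testosterone 6 was not the only adult library with a high value.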

How the results depend on the processing

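The count of members past the threshold was 0 in every fit and under every alternative run. Counts over all genes changed: DESeq2 called 261 fetal genes against 3 with limma, 4 against 1 in the first adult table, 5 against 1 in the second and 7 against 2 in the joined libraries. edgeR called 0, 0 and 1 in the adult fits, and in the joined fit a mean of at least 50, or number 7 as a batch, gave 1. Leaving out 1 library gave 0 to 13 fetal genes (0 without control 1, testosterone 1 or testosterone 2, 1 without control 2, 13 without testosterone 3), 0 in either adult table and 1 in the joined fit.

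Directions of members changed as follows. With the germ cell and meiosis covariate, fetal PIWIL4 and PIWIL1 were at 0.0924 and 0.0919, and adult TDRD5 at -0.30. PIWIL2 in the second adult table was at -0.031 with a pseudocount of 0.5 and -0.26 with quantile normalization; in the joined fit it was at 0.0073 with a pseudocount of 5, 0.29 with DESeq2, 0.28 with edgeR and 0.19 with OXT as a covariate. Joined TDRD5 was at -0.054 with quantile normalization. The difference between ages of TDRKH was -0.17 with the second adult table. The cause was not tested.

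Leaving out 1 library turned the direction within these ranges. In fetuses PIWIL1 ran from -0.33 to 0.073 and PIWIL4 from -0.29 to 0.22. In the first adult table TDRD5 ran from -0.071 to 0.92, TDRD9 from -0.47 to 0.0046 and TDRKH from -0.57 to 0.27. In the second PIWIL2 ran from -0.65 to 1.01, TDRD9 from -0.47 to 0.28 and MOV10L1 from -0.98 to 0.17. In the joined fit PIWIL2 ran from -0.54 to 0.52, PIWIL4 from -0.029 to 0.92, TDRD5 from -0.32 to 0.34 and TDRKH from -0.32 to 0.23. In the difference between ages PIWIL2 ran from -0.049 to 1.01, TDRD9 from -0.16 to 0.34 and TDRKH from -0.090 to 0.47; with no change of direction, MAEL ran from -1.14 to -0.17, PIWIL4 from 0.080 to 1.03, TDRD5 from 0.049 to 0.71 and TDRD6 from 0.88 to 1.42. The adult ranges of PIWIL2 lack testosterone 6, and in the joined fit and the age difference also control 7: without either library its mean fell under 10 and it was not fitted. With testosterone libraries in place of controls, the log2 ratio of fetal to adult level was 5.31 for TDRD6 (6.38 with controls) and 7.44 for MAEL (7.01).

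Whether sample numbers pair the libraries cannot be told from these few values. Deviations of same-numbered fetal libraries correlated at 0.13, 0.0093 and 0.40, and those of differently numbered ones at -0.34 to 0.27. In the joined adult libraries same-numbered ones correlated at -0.64 to 0.30 and differently numbered ones at -0.62 to 0.68. With the number as a replicate block, limma called 10 fetal genes, 0 in either adult table and 0 in the joined fit, with 0 members; in the second adult table the block put TDRD9 at 0.25, PIWIL2 at -0.57 and TDRD5 at -0.091. Limits lie in the adult depth of 1 to 41 reads for most members and in groups of 3 or 4.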
